A study of Mus musculus with 12 samples.

Results

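Metallothioneins are small cysteine-rich proteins that bind zinc and copper. *Mt1*, *Mt2* and *Mt3* were followed in RNAseq libraries of oligodendrocyte precursor cells (OPCs), the cells that give rise to myelinating oligodendrocytes. They are the 3 members chosen by symbol among the 45563 gene symbols used, and each was measured in all 12 libraries. The cells were mouse OPCs from the cortices of pups aged postnatal days 3 to 5 in the methods and 2 to 5 in the labels. They were purified with anti-PDGFRα beads and kept for 3 days in culture with PDGF-AA and FGF2. The 4 groups of 3 libraries are wild type (WT) non-stimulated (NS), WT stimulated (St), TNFR2-/- NS and TNFR2-/- St. Stimulation was with TNF, IFNγ and IL1β together, at 25 ng/mL each for 3 h, and NS cells received PBS. TNFR2-/- stands for mice lacking the TNF receptor gene *Tnfrsf1b* in all cells. The labels give the strain C57BL/6 for all groups, and the methods give C57BL/6J for WT. Both lines came from a supplier, and the sources used here do not say that their pups were littermates.

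*Mt1* and *Mt2* are made in most tissues, bind excess zinc and are induced by metals through the zinc sensor MTF-1, which acts at metal response elements. Glucocorticoids, oxidative stress and inflammatory cytokines that signal through STAT3 also induce them. *Mt3* is expressed mainly in the central nervous system and responds less to metals. In the brain, *Mt1* and *Mt2* transcripts are abundant in astrocytes.

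Library totals ranged from 26886878 to 30335265 read pairs. *Tnfrsf1b* had more reads in the libraries labelled TNFR2-/- than in WT, the opposite of a loss of its transcript. Without cytokines its reads numbered 213 to 346 in the libraries labelled TNFR2-/- and 12 to 24 in WT, and with cytokines 282 to 356 and 61 to 145. The exons these reads cover are not known here, so each direction between genotypes rests on the labels. All 10 OPC markers had reads. Their summed level in RPM, the unit of reads divided by the library total, was 8660 to 10000 in WT NS, 7200 to 8270 in WT St, 8660 to 9490 in NS labelled TNFR2-/- and 7530 to 8280 in St labelled TNFR2-/-. The sum over 11 microglia markers was 9.94 to 13.1 RPM, with *C1qc* and *Trem2* at 0 in 3 of the groups. The sum over 13 astrocyte markers was 2620 to 3040 RPM in WT NS and 2420 to 2530 in WT St. It was higher in libraries labelled TNFR2-/-, at 3670 to 5570 in NS and 3700 to 5460 in St.

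The genes lie in 1 cluster on the forward strand of chromosome 8 (GRCm38, GENCODE M21), in the order *Mt4*, *Mt3*, *Mt2*, *Mt1*, over 43131 bases. *Mt3* (ENSMUSG00000031760) spans chr8:94152607-94154146, *Mt2* (ENSMUSG00000031762) chr8:94172664-94173568 and *Mt1* (ENSMUSG00000031765) chr8:94179082-94180327. The gap between *Mt2* and *Mt1* is 5513 bases, and the gap between *Mt3* and *Mt2* is 18517 bases. Each main transcript has 3 exons. An antisense gene on the reverse strand, Gm45774, overlaps 82.8% of *Mt2*. It is not among the symbols used, the sources used here do not say whether counting used strand, and reads of the pair then cannot be told apart.

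The coding sequences are shown because the cysteine codons define the family. They are printed from GENCODE M21 transcripts, with cysteine codons in capitals.
Mt1: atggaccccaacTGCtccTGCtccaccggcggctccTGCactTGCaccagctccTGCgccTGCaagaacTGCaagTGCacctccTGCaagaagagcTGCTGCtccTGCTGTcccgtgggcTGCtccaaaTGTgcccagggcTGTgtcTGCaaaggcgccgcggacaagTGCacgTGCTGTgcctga
Mt2: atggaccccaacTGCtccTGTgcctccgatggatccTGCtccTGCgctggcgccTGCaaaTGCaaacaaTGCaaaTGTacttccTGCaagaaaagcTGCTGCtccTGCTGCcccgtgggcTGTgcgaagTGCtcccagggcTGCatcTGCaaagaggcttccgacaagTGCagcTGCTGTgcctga
Mt3: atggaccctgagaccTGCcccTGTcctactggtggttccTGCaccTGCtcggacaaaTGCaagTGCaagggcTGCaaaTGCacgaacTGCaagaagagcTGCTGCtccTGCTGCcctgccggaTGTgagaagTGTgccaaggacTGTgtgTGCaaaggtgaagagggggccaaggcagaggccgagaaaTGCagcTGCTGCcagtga

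Each sequence holds 20 cysteine codons, which make up 32.8% of 61 codons in *Mt1* and in *Mt2* and 29.4% of 68 codons in *Mt3*. Over 186 aligned bases, *Mt1* and *Mt2* were identical at 79.6%, *Mt2* and *Mt3* at 75.3% and *Mt1* and *Mt3* at 73.7%. No stretch of 100 bases of a member's transcripts occurs in transcripts of another gene. Of the stretches of 30 bases, 4 of *Mt2* also occur in *Pip5k1a* and none of *Mt1* or *Mt3* is shared.

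The bases upstream of each gene are shown because *Mt1* and *Mt2* changed together in these libraries and both are known targets of MTF-1. The 250 bases before the start given by RefSeq (GRCm38.p6, forward strand) are printed for *Mt1* (chr8:94178839-94179088), *Mt2* (chr8:94172368-94172617) and *Mt3* (chr8:94152357-94152606). Capitals mark the core letters of a metal response element, TGCACNC or TGCGCNC, on either strand.
Mt1: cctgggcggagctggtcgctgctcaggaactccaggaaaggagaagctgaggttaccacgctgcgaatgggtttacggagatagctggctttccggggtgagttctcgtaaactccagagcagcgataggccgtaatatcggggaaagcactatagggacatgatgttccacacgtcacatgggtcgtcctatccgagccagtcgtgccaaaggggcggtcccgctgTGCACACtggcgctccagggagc
Mt2: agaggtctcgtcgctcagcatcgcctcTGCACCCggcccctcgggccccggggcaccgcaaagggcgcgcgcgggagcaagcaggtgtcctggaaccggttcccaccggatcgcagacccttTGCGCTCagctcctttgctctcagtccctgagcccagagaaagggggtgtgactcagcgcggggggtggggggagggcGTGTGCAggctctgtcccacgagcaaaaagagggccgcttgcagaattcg
Mt3: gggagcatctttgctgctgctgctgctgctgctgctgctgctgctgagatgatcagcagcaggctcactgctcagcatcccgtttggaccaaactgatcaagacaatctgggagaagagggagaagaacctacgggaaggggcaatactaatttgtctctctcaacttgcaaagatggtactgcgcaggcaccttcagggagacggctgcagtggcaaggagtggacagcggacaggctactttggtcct

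In the 300 bases that run on past each start, *Mt2* holds 4 cores, *Mt1* 3 and *Mt3* 1. At least 1 core occurs in 25.7% of 32851 promoters of this length, at least 3 in 1.97% and at least 4 in 0.517%. The first base of the *Mt2* cores is at −223, −128, −50 and 5 from the start, that of the *Mt1* cores at −23, 3 and 21, and that of the *Mt3* core at 28. All starts used here are those of the annotations, and where transcription began in these cells was not measured. The whole leader before the start codon, as annotated in GENCODE M21, overlaps the last bases of these windows. In that annotated leader, *Mt1* holds 4 cores in 229 bases, *Mt2* 3 in 184 and *Mt3* 3 in 193. As many or more occur in the first bases, at the same lengths, of 0.184%, 0.693% and 0.757% of protein-coding transcripts, taken as 1 a gene. The letters TGACNNNGC of the antioxidant response element were found once, at −79 in *Mt2*, and occur in 12.4% of promoters. TTCNNNGAA for STAT factors (8.3% of promoters), the NF-κB motif (1.63%) and the glucocorticoid response element (0.0396%) had no match on either strand in the 3 windows. A match describes letters only, and binding of a factor was not measured here.

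The first comparison asks how the cytokines changed WT OPCs. *Mt2* had 222, 160 and 210 FPKM in WT NS replicates 2, 3 and 4, and 584, 439 and 509 in the same replicates of WT St. Every stimulated library was above every non-stimulated one. FPKM scale the read pairs of a gene by the library total and by a length, which the authors kept the same in all libraries. *Mt2* was upregulated 2.59-fold, a log2 fold change of 1.38 ± 0.16 SE on log2(FPKM + 0.5) by limma (adjusted p = 0.000182).

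*Mt1* had 157, 148 and 155 FPKM in WT NS and 258, 236 and 239 in WT St, so the groups did not overlap. It was upregulated 1.59-fold (log2 fold change 0.67 ± 0.07 SE, limma adjusted p = 0.000114). *Mt3* had 144, 117 and 150 FPKM in WT NS and 153, 133 and 160 in WT St, and these ranges overlapped. Its log2 fold change was 0.12 ± 0.11 SE (95% interval −0.13 to 0.37, limma adjusted p = 0.574).

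Calls needed a change of 1.5-fold or more in either direction, a mean of 1 FPKM or more and a limma adjusted p no higher than 0.05. Thus 2 of the 3 metallothioneins were called upregulated in WT OPCs, where 4.58% of 18081 genes tested were. For *Mt1* and *Mt2*, the groups did not overlap, as for 13.7% of genes tested in that direction. The log2 fold change of *Mt2* was above that of 97.5% of genes tested, that of *Mt1* above 94.1% and that of *Mt3* above 77.3%. Of 13 astrocyte markers, 3 were above 0, with a median of −0.13 against −0.06 over all genes, *Fgfr3* was called downregulated and 12 were not called. Of 10 OPC markers, *Sox10* was called upregulated (log2 fold change 0.61), *Olig2* (−1.23) and *Cspg4* (−0.66) downregulated and 7 were not called, with a median of −0.25. The summed level of 9 neuron markers was 137 to 168 RPM in WT NS and 483 to 493 in WT St, with *Tubb3* called up (log2 fold change 3.06), *Snap25* called down (−0.97) and 7 not called, and its part in the result was not tested.

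The same question was asked of the OPCs labelled TNFR2-/-. *Mt2* had 399, 345 and 514 FPKM in NS replicates 2, 4 and 5, and 966, 911 and 994 in St. The lowest stimulated library was again above the highest non-stimulated one. *Mt2* was upregulated 2.31-fold (log2 fold change 1.21 ± 0.16 SE, limma adjusted p = 0.000343).

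*Mt1* had 241, 241 and 293 FPKM in the NS libraries labelled TNFR2-/-, and 341, 339 and 338 in the St libraries. The groups did not overlap, and the difference passed the test but not the limit on size, at 1.32-fold (log2 fold change 0.40 ± 0.07 SE, limma adjusted p = 0.00278). *Mt3* had 195, 182 and 193 FPKM in NS and 198, 159 and 168 in St. Its groups overlapped, with a log2 fold change of −0.12 ± 0.11 SE (95% interval −0.37 to 0.13, limma adjusted p = 0.473).

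In this comparison 1 of the 3 was called upregulated, against 5.41% of genes tested. *Mt1* and *Mt2* were past the adjusted p alone, as were 9.62% of genes in the upward direction, and their groups did not overlap, as for 12.7% of genes in that direction. Of 13 astrocyte markers 5 were above 0, with a median of −0.09 against −0.11 over all genes. The summed level of the neuron markers was 123 to 154 RPM in NS and 493 to 566 in St, and its part was not tested either. Of these 9, *Tubb3* was called up, *Snap25* down (−0.94) and 7 were not called. Of 10 OPC markers, *Olig2* was called downregulated and 9 were not called, with a median of −0.42. Both stimulation comparisons thus had *Mt2* and *Mt1* higher with the cytokines, whereas the interval of *Mt3* included 0 in each. These fits did not pair the NS and St libraries of a culture, so their SE and intervals include the spread between cultures. With a block for the replicate number within genotype, *Mt3* kept its log2 fold changes with an SE of 0.05 in each genotype. Its limma adjusted p was then 0.127 in WT and 0.0949 in OPCs labelled TNFR2-/-.

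**Figure D1:**
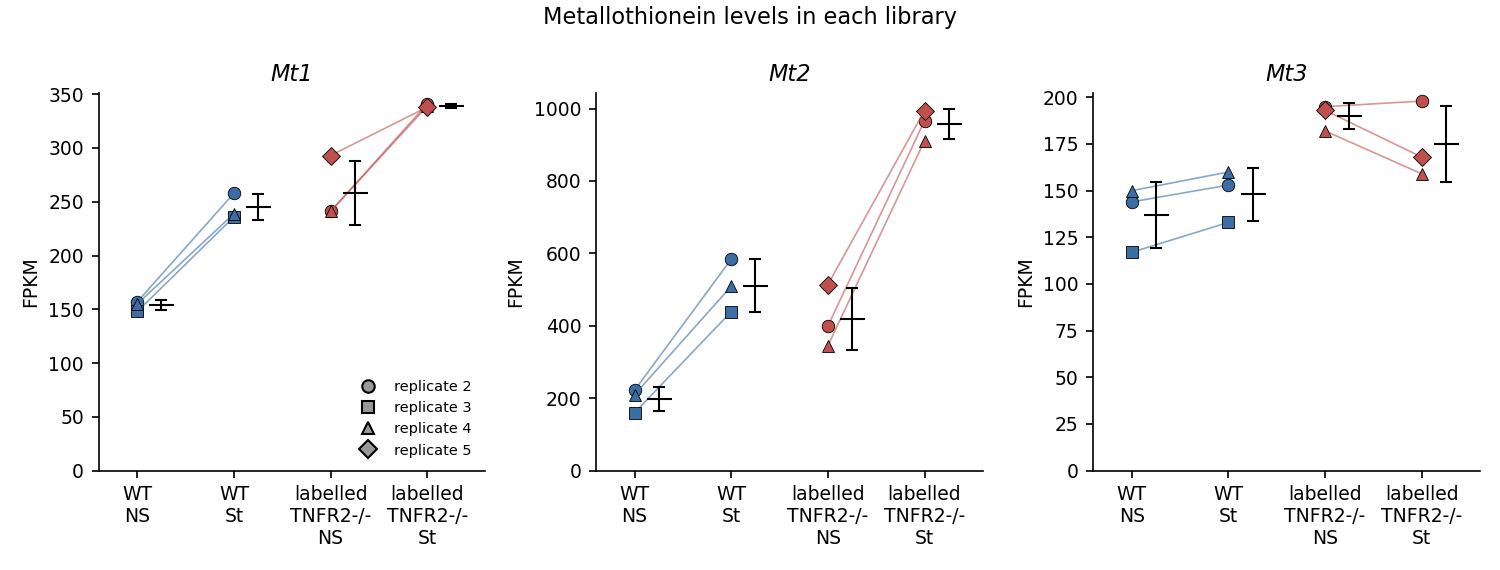
FPKM of *Mt1*, *Mt2* and *Mt3* (vertical axes from 0) in each of the 12 libraries by group, with lines joining the NS and St libraries of 1 replicate number within a genotype and a black bar for the mean ± SD (n = 3). *Mt2* ran from 160 FPKM in a WT NS library to 994 in a St library labelled TNFR2-/-, *Mt1* from 148 to 341 and *Mt3* from 117 to 198.

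Genotypes were next compared without cytokines, by label. Each genotype comparison shares libraries with both stimulation comparisons, so the values are given side by side. The mean of *Mt2* was 197 ± 32.8 FPKM in WT and 419 ± 86.6 in the libraries labelled TNFR2-/- (SD, n = 3). The highest WT library, 222, was below the lowest library labelled TNFR2-/-, 345. *Mt2* was 2.12-fold higher in the latter (log2 fold change 1.08 ± 0.16 SE, limma adjusted p = 0.0101).

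*Mt1* averaged 154 ± 4.78 FPKM in WT NS and 258 ± 29.8 in NS labelled TNFR2-/- (SD, n = 3), with no overlap. It was 1.67-fold higher (log2 fold change 0.74 ± 0.07 SE, limma adjusted p = 0.00217). *Mt3* averaged 137 ± 17.9 and 190 ± 7.08 FPKM (SD, n = 3), also with no overlap. Its 1.39-fold difference was below the limit on size (log2 fold change 0.48 ± 0.11 SE, limma adjusted p = 0.0286). The adjusted p of *Mt3* by limma was 0.106 without replicate 3 and 0.0640 without replicate 4 of WT NS, 0.0764 without NS replicate 2 labelled TNFR2-/- and 0.0845 without replicate 5 of that group.

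Without cytokines, 2 of the 3 members were called higher in libraries labelled TNFR2-/-, against 1.62% of genes tested, and all 3 passed the adjusted p alone, as did 6.11% of genes in that direction. All 3 had groups that did not overlap, as did 19.9% of genes in that direction. With the spread estimated from the 6 NS libraries alone, the limma adjusted p was 0.0833 for *Mt1* and for *Mt2* and 0.0882 for *Mt3*, and the number of genes called was 7 in place of 524. Astrocyte markers moved with this result. All 13 were above 0, with a median of 0.76 against 0.04 over all genes, and *Gja1* and *Fgfr3* were called higher (limma adjusted p = 0.037 and 0.0193). Their number called ranged from 0 to 4 when 1 library was left out. The highest summed astrocyte level and the highest *Mt1* and *Mt2* levels among NS libraries were in replicate 5 labelled TNFR2-/-. So was the highest sum over 8 mature oligodendrocyte markers, 1340 RPM, with 737 and 925 in the other libraries of that label and 550 to 1050 in WT NS. All 8 were above 0 in this comparison, with a median of 0.41, and none was called. *Mt3* was highest in replicate 2 labelled TNFR2-/-, at 195 FPKM against 193 in replicate 5. Of 10 OPC markers 5 were above 0, with a median of −0.03, and none was called. In NS labelled TNFR2-/- their sum was also highest in replicate 5, at 9490 RPM against 8660 and 8750, with 8660 to 10000 in WT NS. Without replicate 5 labelled TNFR2-/-, the log2 fold change was 0.65 for *Mt1*, 0.92 for *Mt2* and 0.47 for *Mt3*. The part of these markers in the metallothionein difference was not tested, and in bulk RNA a different share of a cell type and a different amount of RNA per cell cannot be told apart.

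Among stimulated cultures, *Mt2* averaged 511 ± 72.7 FPKM in WT St and 957 ± 42.5 in St labelled TNFR2-/- (SD, n = 3). The groups did not overlap, and *Mt2* was 1.88-fold higher in the latter (log2 fold change 0.91 ± 0.16 SE, limma adjusted p = 0.0197). Its limma adjusted p was 0.0826 without WT St replicate 3, 0.0731 without WT St replicate 4, 0.0562 without St replicate 2 labelled TNFR2-/- and 0.0697 without replicate 5 of that group, within a range of 0.00664 to 0.0826 over all alternatives.

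*Mt1* averaged 245 ± 11.9 and 339 ± 1.65 FPKM (SD, n = 3) in these groups, which did not overlap. The 1.39-fold difference was below the limit on size (log2 fold change 0.47 ± 0.07 SE, limma adjusted p = 0.0137). The limma adjusted p of *Mt1* was 0.0634 without WT St replicate 3 and 0.0656 without WT St replicate 4. *Mt3* averaged 148 ± 14.1 and 175 ± 20.2 FPKM (SD, n = 3), and its groups overlapped (log2 fold change 0.24 ± 0.11 SE, 95% interval −0.01 to 0.48, limma adjusted p = 0.203).

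In stimulated cultures, 1 of the 3 members was called, against 1.18% of genes called higher. *Mt1* and *Mt2* passed the adjusted p alone, as did 2.7% of genes in that direction. *Mt1* and *Mt2* had groups that did not overlap, as did 15.4% of genes in that direction. All 13 astrocyte markers were above 0 here too, with a median of 0.69 against 0.00 over all genes, and *Slc1a3*, *Slc4a4* and *Slc1a2* were called higher (limma adjusted p = 0.0116, 0.00994 and 0.0451). That number ranged from 1 to 5 when 1 library was left out and was 5 with median-of-ratios scaling. Among these libraries the summed astrocyte level was highest in replicate 5, at 5460 RPM against 3700 and 3800. In that library *Mt2* was 994 FPKM against 966 and 911, and *Mt1* 338 against 341 and 339. Of 10 OPC markers, *Pdgfra* and *Lhfpl3* were called lower by label (−0.60 and −0.59, limma adjusted p = 0.0488 and 0.0388) and 8 were not called, with a median of −0.05. The part of either marker list in this difference was not tested.

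**Figure D2:**
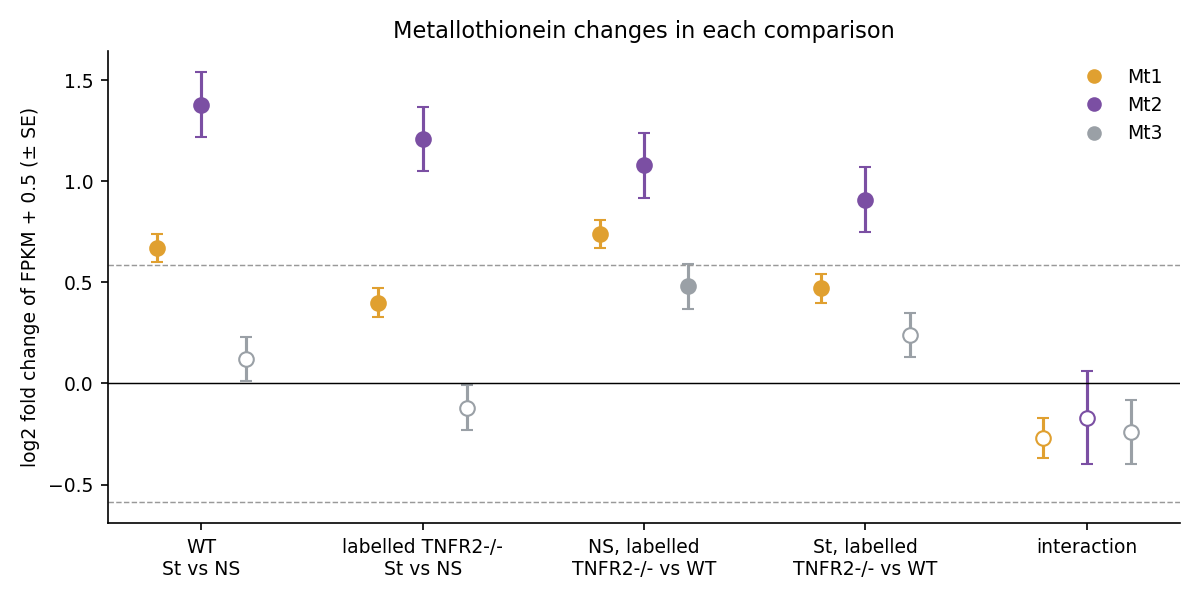
Log2 fold change of FPKM + 0.5 (vertical axis, ± SE) of each metallothionein in the 4 comparisons and the interaction, with filled points for a limma adjusted p of at most 0.05 and dashed lines at the limit on size of 1.5-fold. *Mt2* had the largest value of the 3 in each of the 4 comparisons, from 0.91 to 1.38, and no interaction point is filled.

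The interaction asks whether the change with cytokines differed between genotypes. It was −0.27 ± 0.10 SE for *Mt1* (limma adjusted p = 0.572, unadjusted p = 0.0261), −0.17 ± 0.23 SE for *Mt2* (adjusted p = 0.923) and −0.24 ± 0.16 SE for *Mt3* (adjusted p = 0.759). None of the 3 passed, and 1 gene of all those tested did, or 0.00553%. The 95% intervals were −0.50 to −0.04 for *Mt1*, −0.67 to 0.34 for *Mt2* and −0.59 to 0.11 for *Mt3*.

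Within cultures of 1 replicate number, log2 St minus NS of *Mt1* was 0.72, 0.67 and 0.62 in WT, and 0.50, 0.49 and 0.21 in those labelled TNFR2-/-. The latter were all smaller, as was so for 18.3% of genes tested. The smallest rise belonged to replicate 5, the library with the highest *Mt1* level before stimulation. *Mt2* rose by 1.40, 1.45 and 1.28 in WT cultures and by 1.27, 1.40 and 0.95 in those labelled TNFR2-/-, and these ranges overlapped. *Mt3* changed by 0.08, 0.18 and 0.09 in WT cultures, and by 0.02, −0.19 and −0.20 in those labelled TNFR2-/-. The exact permutation test of 3 cultures against 3 gave p = 0.1 for *Mt1* and for *Mt3*, the smallest it allows, and 0.4 for *Mt2*.

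The order of the group means was WT NS, WT St, NS labelled TNFR2-/- and St labelled TNFR2-/- for *Mt1*. The second and the third in that order, at 245 and 258 FPKM, overlapped. For *Mt2* the order was WT NS, NS labelled TNFR2-/-, WT St and St labelled TNFR2-/-, and the middle groups, 419 and 511 FPKM, overlapped. *Mt3* ran from WT NS through WT St and St labelled TNFR2-/- to NS labelled TNFR2-/-, and every neighbouring pair overlapped. The highest *Mt3* mean was thus in a non-stimulated group and the highest *Mt1* and *Mt2* means in a stimulated one.

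The 3 genes together took 551 to 668 RPM in WT NS, 941 to 1150 in NS labelled TNFR2-/-, 897 to 1070 in WT St and 1420 to 1550 in St labelled TNFR2-/-. *Mt2* held 21.1% to 24.2% of their reads in WT NS, 26.7% to 32.5% in NS labelled TNFR2-/-, 35.6% to 39.6% in WT St and 45.3% to 48.1% in St labelled TNFR2-/-. None of these ranges of the *Mt2* share overlapped, whereas the summed levels of NS labelled TNFR2-/- and WT St did.

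The ratio of *Mt2* to *Mt1* reads was 0.636 to 0.832 in WT NS, 0.841 to 1.03 in NS labelled TNFR2-/-, 1.09 to 1.33 in WT St and 1.58 to 1.73 in St labelled TNFR2-/-. *Mt2* thus differed more than *Mt1* in each of the 4 comparisons, with ranges that did not overlap. The ratio of *Mt2* to *Mt3* reads also separated the groups of each comparison. The ratio of *Mt1* to *Mt3* reads overlapped in both genotype comparisons and separated the groups in both stimulation comparisons.

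**Figure D3:**
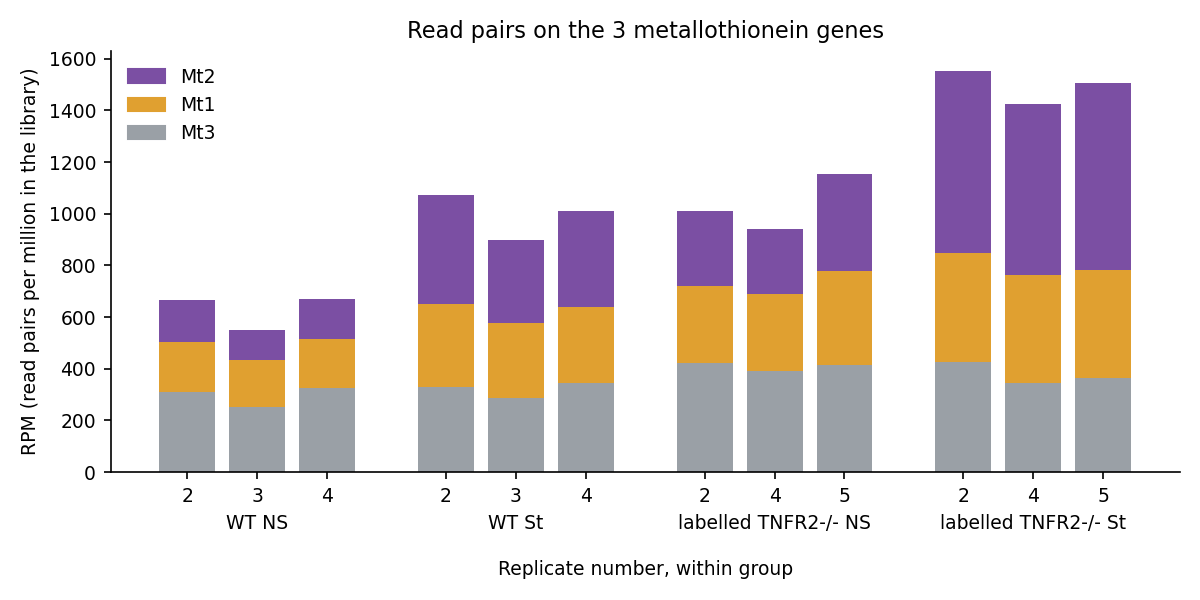
RPM (read pairs over the library total, vertical axis, from 0) on *Mt3*, *Mt1* and *Mt2*, stacked, with 1 bar for each library and its replicate number below. The sum ran from 551 in a WT NS library to 1550 in a St library labelled TNFR2-/-, and the *Mt2* section widened from 21.1% to 48.1% of the bar.

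The divisors in the deposited FPKM were 1236 bases for *Mt1*, 728 for *Mt2* and 2157 for *Mt3* and are not the annotated exon lengths, so levels were set side by side per annotated kilobase instead. In RPM per kilobase of the main transcript, *Mt3* had 551 ± 72.0 in WT NS, *Mt1* 346 ± 11.2 and *Mt2* 281 ± 46.7 (SD, n = 3). In St labelled TNFR2-/-, *Mt2* was first with 1370 ± 61.1, ahead of *Mt1* with 764 ± 3.46 and *Mt3* with 705 ± 81.1. Per kilobase of all annotated exons, *Mt3* again had the highest mean in WT NS (277 ± 36.3) and *Mt2* in St labelled TNFR2-/- (1190 ± 51.3). The place of the *Mt1* mean depended on the length used, since by exons it came last in both groups, at 152 ± 4.73 and 337 ± 1.73. In St labelled TNFR2-/-, *Mt1* and *Mt3* overlapped by either length. By exons, *Mt3* had 400, 322 and 341 in replicates 2, 4 and 5, and *Mt1* 339, 336 and 336. By main transcript, *Mt3* at 796 was above *Mt1* at 768 in replicate 2 and below it in replicates 4 and 5.

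*Mt4* (ENSMUSG00000031757), the family member of stratified epithelia, had 0 reads in all 6 NS libraries, 6 to 14 in WT St and 2 to 4 in St labelled TNFR2-/-. It was under the filter on low values and was not tested. This pattern, 0 in all NS and at least 1 read in all St libraries, was shared by 55 of 26636 genes with reads.

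Of 8 other tested genes within 250 kb of the cluster, none was called between genotypes in either condition and 1 was called in each stimulation comparison. That gene, the long noncoding RNA 9330175E14Rik, was named after its values were seen. Its reads in NS libraries numbered 2 to 7 for WT and 2 to 11 by the TNFR2-/- label, and in St libraries 314 to 332 and 292 to 331. The coding genes *Nup93*, *Bbs2*, *Herpud1*, *Nudt21*, *Ogfod1* and *Gnao1* were among the 7 not called.

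**Figure D4:**
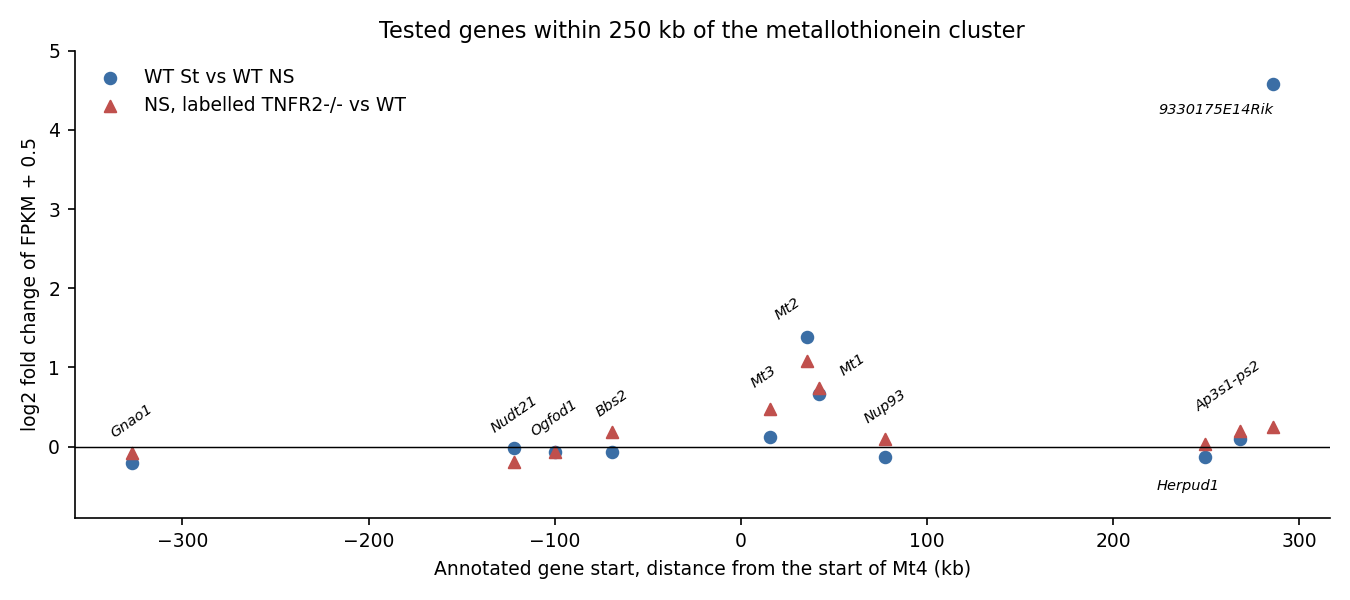
Log2 fold change of FPKM + 0.5 (vertical axis) of 11 tested genes within 250 kb of the metallothionein cluster, the members included, against the distance of the annotated gene start from that of *Mt4* in kilobases. Circles are WT St vs WT NS and triangles NS labelled TNFR2-/- vs WT NS. *Mt1* lies at 0.67 and 0.74 and *Mt2* at 1.38 and 1.08, and *Nup93* and *Bbs2*, the nearest tested genes on either side of the cluster, lie near 0.

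Other genes were ranked by how closely they followed each member over the 12 libraries, by Pearson's r of log2(FPKM + 0.5) among 13553 genes. The libraries share groups and cultures, so r is given as a description. *Mt2* was the gene most like *Mt1* (r = 0.97), followed by *Eci1* (0.96) and *Crot* (0.958), enzymes of fatty acid oxidation, with *Fam13a* (0.959) between them and *Pttg1ip* (0.956) after them. *Mt1* was in place 7 for *Mt2*. The genes most like *Mt2* were *Il1r1* (r = 0.982), the receptor of IL1β, *Ikzf2* (0.974), a transcription factor, *Slc20a2* (0.973), a phosphate transporter, *S1pr1* (0.973), a sphingosine 1-phosphate receptor, and *Emx2os* (0.97). *Il1r1* averaged 3.78 ± 1.24 FPKM in WT NS and 26.2 ± 8.04 in St labelled TNFR2-/- (SD, n = 3), and its group means had the order of the *Mt2* means.

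*Mt3* followed other genes: *Pon2* (r = 0.946), *Mipep* (0.945), *Rps6ka4* (0.942), *Fth1* (0.94), the iron-storing heavy chain of ferritin, and *Clybl* (0.935). Its r was 0.654 with *Mt1* and 0.562 with *Mt2*, in places 1485 and 2331. With group means removed, which leaves the spread between libraries of a group, r was 0.851 between *Mt1* and *Mt2*, 0.642 between *Mt2* and *Mt3* and 0.31 between *Mt1* and *Mt3*. The leading genes then were *Scnm1* for *Mt1* (0.941), *Pqlc3* for *Mt2* (0.965) and *Ifitm3* for *Mt3* (0.975).

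Zinc handling genes were read beside the metallothioneins, with 21 of 25 tested. Over all genes tested, 2.95% were downregulated in WT and 4.68% in OPCs labelled TNFR2-/-, and 1.28% were called lower by label in NS and 0.614% in St, beside the shares already given for calls in the upward direction. *Mtf1*, which encodes the zinc sensor that activates *Mt1* and *Mt2*, had log2 differences of −0.15 and −0.12 with stimulation in WT and labelled TNFR2-/- OPCs and of −0.14 and −0.10 between genotypes in NS and St (limma adjusted p = 0.368, 0.416, 0.375 and 0.524). *Slc30a1*, the zinc exporter at the cell surface and another MTF-1 target, averaged 5.27 ± 0.156 FPKM in WT NS and 7.43 ± 1.83 in NS labelled TNFR2-/- (SD, n = 3). Its log2 fold changes were 0.43 between genotypes in NS and −0.08 with stimulation of WT (limma adjusted p = 0.133 and 0.844). In WT, 2 of the 21 were upregulated and none downregulated: the importers *Slc39a6* (0.73) and *Slc39a1* (0.64), with a median of −0.08 over the list against −0.06 over all genes. In OPCs labelled TNFR2-/-, 4 were upregulated, namely these, *Slc30a4* (0.76) and *Slc39a14* (0.73), an importer induced by IL-6. Between genotypes, 1 was called in NS, *Slc30a4*, lower by label (−0.81), and none in St. The number called higher in NS was 2 without replicate 4 labelled TNFR2-/-, and the number called lower was 0 without WT NS replicate 3 or 4 or without replicate 5 labelled TNFR2-/-.

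Copper handling genes held larger changes. Of 15 tested, 4 were upregulated with stimulation in each genotype and none was downregulated, with medians of 0.09 in WT and −0.11 in OPCs labelled TNFR2-/-. Reads of *Steap4*, a metalloreductase, went from 0 to 2 up to 1192 to 2153 in WT, and from 6 to 19 up to 2971 to 6931 in the libraries labelled TNFR2-/-. *Cp*, which encodes the copper-binding ferroxidase ceruloplasmin, had log2 fold changes of 1.99 and 2.77, the metalloreductase *Steap2* 0.85 and 1.45, and the copper exporter *Atp7a* 0.73 and 1.09. Between genotypes none was called in NS, and *Steap2* and *Steap4* were called higher in St labelled TNFR2-/-. The number in St was 0 without WT St replicate 3 or 4, 1 without St replicate 2 or 5 labelled TNFR2-/- and 3 without WT NS replicate 3.

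All 23 targets of the oxidative stress factor NRF2 were tested. *Txnrd1*, thioredoxin reductase, and *Slc7a11*, the cystine importer, were upregulated with stimulation, with log2 fold changes of 0.82 and 0.69 in WT and 0.91 and 1.38 in OPCs labelled TNFR2-/-. None of the 23 was downregulated, and the medians were 0.05 and −0.06. Between genotypes, 1 was called in NS, the heme-degrading enzyme *Hmox1* (0.62, limma adjusted p = 0.0224), and 1 in St, *Slc7a11* (0.78, limma adjusted p = 0.0444). The number in NS was 0 without WT NS replicate 3 or 4 or without NS replicate 2 or 5 labelled TNFR2-/-, and 2 without replicate 4 of that group. The number in St was 1 in 3 of the 12 fits that left out a library and 0 in the other 9. In NS, 20 of the 23 were above 0, with a median of 0.19 against 0.04 over all genes. *Nfe2l2*, the gene of NRF2, differed by 0.44 and 0.54 between genotypes in NS and St (limma adjusted p = 0.0762 and 0.0562).

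Glucocorticoid-responsive genes held more downregulated than upregulated calls with stimulation. Of 12 tested, 1 was upregulated and 3 were downregulated in each genotype, with medians of −0.25 in WT and −0.23 in OPCs labelled TNFR2-/-. Those downregulated were *Sgk1* (−0.96 and −1.53), *Tsc22d3* (−0.95 and −1.37) and *Ddit4* (−0.85 and −1.23), and *Errfi1* was upregulated (0.62 in WT). *Nr3c1*, the glucocorticoid receptor gene, fell by 0.35 and 0.36 on the log2 scale (limma adjusted p = 0.0106 and 0.00576). Between genotypes in NS, *Pdk4* was called higher (1.02) and *Zbtb16* lower (−0.90), and none was called in St. When 1 of the 12 libraries was left out, 0 to 2 were called higher and 0 or 1 lower in NS, with 0 higher in 7 of these fits and 0 lower in 8, and 0 or 1 higher in St.

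Among 19 regulators of metallothionein transcription and cytokine signaling, 8 were upregulated in WT and 9 in OPCs labelled TNFR2-/-, and none was downregulated, with medians of 0.40 and 0.44. *Stat3* had a log2 fold change of 1.73 in WT and 1.55 in OPCs labelled TNFR2-/- (limma adjusted p = 4.6e-08 and 8.21e-08). The transcription factor gene *Cebpd* (2.18 and 2.52), *Socs3*, a feedback inhibitor of STAT3 (4.32 and 4.34), and the cytokine genes *Lif* (4.07 and 5.02) and *Il6* (3.95 and 5.06) had larger changes. Between genotypes, *Cebpb* (0.72) was called in NS and none in St. The number in NS was 0 without WT NS replicate 3 or 4 or without NS replicate 2 or 5 labelled TNFR2-/-, and that in St was 0 to 2 when 1 library was left out. *Stat3* itself differed by 0.02 between genotypes in NS and by −0.16 in St (limma adjusted p = 0.885 and 0.178).

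Of 15 hypoxia-responsive genes, 5 were upregulated and 2 downregulated in WT, and 5 and 1 in OPCs labelled TNFR2-/-, with medians of 0.03 and −0.13. *Hk2*, a hexokinase of glycolysis, had log2 fold changes of 1.59 and 2.19 and *Ndrg1* of 1.19 and 1.27. *Hif3a* was downregulated (−2.76 and −2.05). Between genotypes none was called in NS and 1 in St, *Egln3* (0.65). The number called higher in St was 0 without WT St replicate 4 and 2 without St replicate 4 labelled TNFR2-/-, and 1 was called lower in NS without WT NS replicate 2. The list medians between genotypes in NS and St were −0.07 and 0.12 for zinc transport, 0.11 and 0.02 for copper handling, 0.16 and 0.06 for glucocorticoid-responsive genes, 0.05 and 0.04 for hypoxia and 0.02 and 0.14 for regulators.

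**Figure D5:**
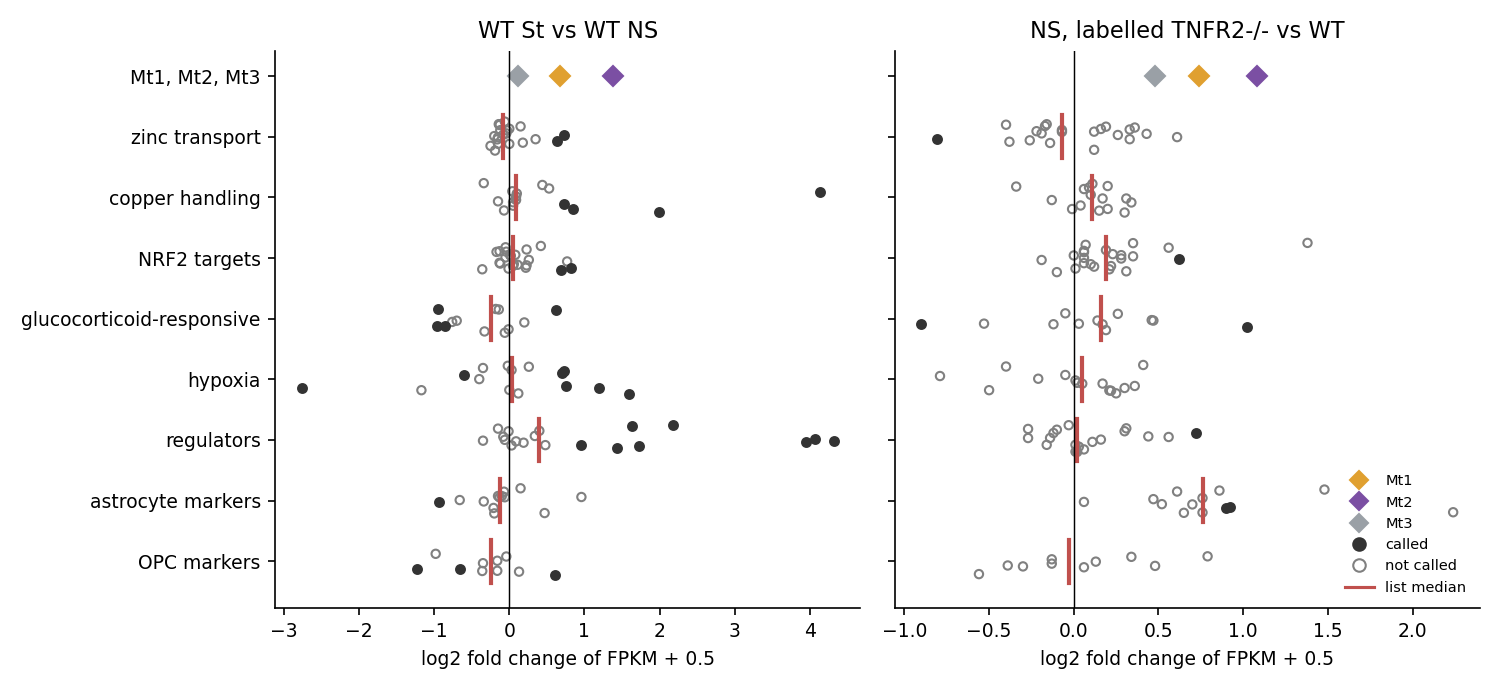
Log2 fold change of FPKM + 0.5 (horizontal axes, with a different range in each panel) of the genes of each list in WT St vs WT NS and in NS labelled TNFR2-/- vs WT NS, with filled circles for called genes, a red line for the list median and diamonds for the metallothioneins. With stimulation *Mt2* at 1.38 is past every zinc transport gene. Between genotypes *Mt1*, *Mt2* and *Mt3* lie at 0.74, 1.08 and 0.48, and the astrocyte markers from 0.06 to 2.24 with a median of 0.76.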

How the data were processed

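RNAseq was analyzed from 12 libraries in 4 groups of 3, grouped by the sample labels. Per the submitters' notes, Trim Galore, STAR, GRCm38 and edgeR were used upstream, and the authors deposited FPKM in separate NS and St tables of 45792 entries, of which 229 share a symbol and were left out. FPKM as deposited are whole multiples of 1 read, so read counts were recovered, whole within 0.02 reads for 26636 of 26636 genes above 0 in at least 2 libraries. Whether the libraries of a group came from separate litters is not stated, so p-values measure the spread between these libraries.

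The 4 group means of log2(FPKM + 0.5) were estimated from all 12 libraries in limma 3.58.1 (R 4.3.3), with a prior that follows the mean. Genes averaging 0.1 FPKM or more entered the fit (18081), and Benjamini-Hochberg adjustment ran over all of them. Permutation tests were exact and two-sided, with a smallest p of 0.1. Tables were read in Python 3.11.15 with numpy 2.4.6, pandas 2.3.3 and scipy 1.17.1, and plots made with matplotlib 3.10.9.

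The members, the gene lists and the tests were chosen with earlier results of these data known. Genes named beside the members were *Mtf1*, *Slc30a1*, *Nr3c1*, *Stat3* and *Nfe2l2*, the called genes of each list with the largest changes with stimulation, up to 4, and the 5 genes most like each member. Other genes named were chosen after their values were seen. Within a genotype, NS and St libraries of the same number correlated at 0.34 to 0.65 over 13554 genes after group means were removed (6 pairs) and those of other numbers at −0.45 to 0.088, so numbers pair libraries of 1 culture. Across genotypes, same numbers correlated at −0.055 to 0.2. Promoters came from RefSeq, where all 3 members matched, and transcripts from GENCODE M21. Alternatives were other pseudocounts, filters, scalings, library subsets and weights, a replicate block, no trend, and voom on recovered reads. Median-of-ratios and leave-one-out counts of the gene lists were added after seeing the data. Results for 2 genes, 1 of a list and 1 near the cluster, are not reported here. Protein, qPCR and cell counts were not analyzed here.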

Additional observations from a re-analysis of the deposited data

How the results depend on the processing

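Over 354 values of the members under alternatives, all kept their direction, and 348 were called or not called as reported. In some settings the direction could not change, because the group means stayed as they were. Examples are another filter on low values, no trend, the 6 libraries compared only, and a left-out library of a group outside the comparison. By the adjusted p alone, *Mt3* between genotypes in NS was at or below 0.05 in 19 of 24 settings and *Mt1* between genotypes in St in 22 of 24. With the 6 libraries compared only, *Mt1* and *Mt2* between genotypes in NS kept log2 fold changes of 0.74 and 1.08 but were not called (limma adjusted p = 0.0833 for both). The other 4 values were of *Mt2* between genotypes in St, without 1 of WT St replicates 3 and 4 or of St replicates 2 and 5 labelled TNFR2-/-. The cause was not tested. With 1 library left out at a time, *Mt1* ranged over 0.65 to 0.79 (genotype, NS), 0.63 to 0.69 (stimulation, WT), 0.35 to 0.49 (stimulation, labelled TNFR2-/-), 0.45 to 0.51 (genotype, St) and −0.32 to −0.18 (interaction). *Mt2* ranged over 0.92 to 1.21, 1.23 to 1.48, 1.08 to 1.37, 0.81 to 1.02 and −0.30 to −0.01, and *Mt3* over 0.37 to 0.55, 0.01 to 0.20, −0.21 to −0.06, 0.15 to 0.30 and −0.33 to −0.13, in the same order.

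With a replicate block by number, *Mt2* was 0.86 higher by label in NS and 0.70 in St (log2, limma adjusted p = 0.00347 and 0.00703). This block treats libraries of the same number in both genotypes as related, which is not established. Across genotypes, same numbers correlated at −0.055 to 0.2 and other numbers at −0.21 to 0.18. The replicate block changed no call of a member, and with the block within genotype the adjusted p of the interactions was 0.158, 0.461 and 0.146 for *Mt1*, *Mt2* and *Mt3*.

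The genes called between genotypes were 524 in NS and 325 in St. They were 7 and 47 with the 6 libraries compared only, 756 and 506 with library weights, 268 and 166 with no filter on low values, and 49 to 953 and 39 to 462 when 1 library was left out. In the lists, median-of-ratios scaling moved hypoxia genes called lower in WT from 2 to 1 and NRF2 targets called higher in St by label from 1 to 2. With 3 libraries a group, the intervals of *Mt3* with stimulation include changes of up to 0.37 on the log2 scale upward in WT.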
